A study of Mus musculus with 12 samples.

Results

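The homeostatic microglial genes are 9 genes that resting microglia express and that are widely used to recognise these cells: P2ry12, P2ry13, Tmem119, Cx3cr1, Csf1r, Olfml3, Selplg, Fcrls and Sall1. They were taken by symbol from the table of raw read counts, in which each symbol matched 1 Ensembl gene, so the set holds 9 of 55385 genes. All 9 passed the filter on low counts and are among the 15905 genes tested. RNA came from the hippocampus of adult mice of 4 genotypes: Kcnip3 KO-5xFAD, 5xFAD, Kcnip3 KO and WT, with 3 libraries each. 5xFAD mice carry mutant human transgenes that Thy1 regulatory sequences drive in neurons, and they develop amyloid plaques. Kcnip3 KO mice carry a knockout of Kcnip3, which encodes the calcium-binding protein KChIP3 (also called DREAM or calsenilin), and Kcnip3 KO-5xFAD mice carry both the knockout and the transgenes. The labels give no exact age or sex, and they do not say whether each library came from its own animal, so p-values measure the spread between these libraries, which may be technical.

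Microglia are the resident macrophages of the brain. In the undisturbed brain they survey the tissue with moving processes, depend on signalling through Csf1r for survival, and keep their identity under transforming growth factor β and transcription factors that include PU.1 and Sall1. Around amyloid plaques microglia gather and take up a second programme of lysosomal, lipid-handling and phagocytic genes, and single-cell work in mice has described lower homeostatic gene expression in such cells.

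The libraries held 7664407 to 11310714 counts, and the 9 genes had 86 to 2903 counts each per library. Thy1, whose sequences the transgenes carry, read 2592 to 3381 CPM (read counts scaled to an equal library size by TMM) in Kcnip3 KO-5xFAD replicates 1 and 3, 2870 to 4236 CPM in 5xFAD, 749 to 868 CPM in Kcnip3 KO and 747 to 887 CPM in WT replicates 1 and 2. The library labelled Kcnip3 KO-5xFAD replicate 2 read 926 CPM and the library labelled WT replicate 3 read 2277 CPM, so 2 of the 12 libraries went against their labels by Thy1. Kcnip3 read 68.7 to 84.9 CPM in Kcnip3 KO-5xFAD, 138 to 156 CPM in 5xFAD, 63.4 to 125 CPM in Kcnip3 KO and 158 to 162 CPM in WT. Kcnip3 reads were thus lower but still present in every library labelled as a knockout. The 125 CPM was in Kcnip3 KO replicate 3, which lay nearer to the libraries with intact Kcnip3 than to the other Kcnip3 KO libraries at 63.4 and 71.4 CPM, so that library also went against its label, by the targeted gene. The tests of the 9 genes are therefore given with all 12 libraries, with the 10 that remain without the 2 by Thy1, and with the 9 that also leave out Kcnip3 KO replicate 3. Neuron markers summed to 4073 to 5119 CPM across all 12 libraries, and choroid plexus markers ranged from 102 to 8943 CPM with low and high libraries in 3 of the 4 genotypes.

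Of the 9 genes 4 lie on chromosome 3 and 2 on chromosome 5. On GRCm38, P2ry12 (ENSMUSG00000036353, chr3:59216272-59262871, minus strand) and P2ry13 (ENSMUSG00000036362, chr3:59207892-59210882, minus strand) are neighbours separated by 5389 bases. Both lie within Med12l on the opposite strand, with 9 and 0 exonic bases shared. Fcrls (ENSMUSG00000015852, chr3:87250758-87263738, minus strand) and Olfml3 (ENSMUSG00000027848, chr3:103722222-103738001, minus strand) are on the same chromosome. Tmem119 (ENSMUSG00000054675, chr5:113793729-113800516) and Selplg (ENSMUSG00000048163, chr5:113818536-113832644) lie close together on the minus strand of chromosome 5. Cx3cr1 (ENSMUSG00000052336, chr9:119901616-120069879) and Sall1 (ENSMUSG00000031665, chr8:89027235-89044162) are also on the minus strand. No source used here says whether the authors counted by strand.

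Upstream windows of 250 bases were available in RefSeq (GRCm38.p6) for 6 of the 9 genes, P2ry12, P2ry13, Cx3cr1, Olfml3, Fcrls and Sall1, with 8 windows in all. They were searched on both strands for GAGGAA and AGGAAGT, forms of the purine-rich core that PU.1 recognises; the motifs share letters and can overlap each other. Either motif was found in 4 of the 8 windows, from 4 of the 6 genes, against 27.3% of 32851 promoter windows of the same length (23.3% with GAGGAA and 7.69% with AGGAAGT). The windows of the neighbours P2ry12 and P2ry13 and that of Fcrls, the gene with the largest fold of the 9 in 5xFAD, are shown 5′ to 3′ on the minus strand, with motif letters of either strand in capitals.
P2ry12, chr3:59262986-59263235: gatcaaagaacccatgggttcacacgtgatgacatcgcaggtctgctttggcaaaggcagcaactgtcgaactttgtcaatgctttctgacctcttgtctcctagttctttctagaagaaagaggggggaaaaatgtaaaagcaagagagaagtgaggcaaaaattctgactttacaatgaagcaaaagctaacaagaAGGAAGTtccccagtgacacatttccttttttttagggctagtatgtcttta
P2ry13, chr3:59210883-59211132: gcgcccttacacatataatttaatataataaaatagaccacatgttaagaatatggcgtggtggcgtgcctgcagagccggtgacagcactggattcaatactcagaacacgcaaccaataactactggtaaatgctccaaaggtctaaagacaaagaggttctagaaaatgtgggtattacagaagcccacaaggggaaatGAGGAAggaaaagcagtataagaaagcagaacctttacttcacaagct
Fcrls, chr3:87263525-87263774: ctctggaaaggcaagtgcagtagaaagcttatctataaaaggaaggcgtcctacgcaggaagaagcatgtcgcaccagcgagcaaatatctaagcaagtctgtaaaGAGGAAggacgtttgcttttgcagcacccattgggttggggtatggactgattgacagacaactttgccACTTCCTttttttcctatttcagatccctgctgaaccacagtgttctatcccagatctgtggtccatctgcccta
P2ry12 holds AGGAAGT 1 time, P2ry13 holds GAGGAA 1 time, and Fcrls holds 1 of each, AGGAAGT on the other strand. A match is a description of these letters and not evidence of binding.

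Per length, Csf1r had the highest mean level of the 9 genes in both 5xFAD and WT. In 5xFAD the mean TPM (transcript abundance per length, from the authors' log2 TPM; SD, n = 3) was 144 ± 7.71 for Csf1r, 110 ± 11.9 for Fcrls and 78.7 ± 9.17 for Tmem119. Selplg followed at 58.1 ± 7.48 TPM, Cx3cr1 at 53.5 ± 1.51 TPM and Olfml3 at 34.8 ± 1.46 TPM in 5xFAD. P2ry12 at 23.8 ± 2.68 TPM, P2ry13 at 21.0 ± 1.32 TPM and Sall1 at 10.6 ± 3.27 TPM were the lowest in 5xFAD. In this order of 5xFAD means, the ranges of mean ± SD overlapped between Selplg and Cx3cr1 and between P2ry12 and P2ry13, and no other neighbours overlapped. In WT the order was Csf1r (78.5 ± 20.1 TPM), Tmem119 (55.6 ± 5.92 TPM), Fcrls (49.8 ± 16.4 TPM), Selplg (31.7 ± 7.64 TPM), Cx3cr1 (29.3 ± 7.01 TPM), P2ry12 (23.0 ± 5.12 TPM), Olfml3 (16.3 ± 2.40 TPM), P2ry13 (14.2 ± 1.85 TPM) and Sall1 (10.6 ± 2.90 TPM). In WT every pair of neighbours in the order overlapped in mean ± SD. Olfml3 stood above P2ry12 in 5xFAD and below it in WT.

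The first comparison asks how the homeostatic genes stood in hippocampus with amyloid, with Kcnip3 intact. In 5xFAD against WT, 6 of the 9 genes rose, namely Fcrls, Olfml3, Selplg, Csf1r, Cx3cr1 and Tmem119, by 1.57-fold to 2.47-fold (edgeR quasi-likelihood test, Benjamini-Hochberg adjusted p under 0.05), and 0 fell. Of all genes tested, 1.91% were called higher and 1.62% lower. All 9 estimates were positive, with a median log2 fold change of 1.02, against 0.01 over all genes tested. P2ry12 and Sall1 were near 0 and P2ry13 lay at the threshold. Because these are bulk samples, more microglia and more RNA per microglial cell cannot be told apart.

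Among the surface receptors, Csf1r, the receptor for Csf1 and Il34, had 270, 285 and 263 CPM in 5xFAD replicates 1 to 3, against 121, 111 and 169 CPM in WT. Every 5xFAD library was above every WT library, and the log2 fold change was 1.02 ± 0.21 (SE; adjusted p = 0.0339). Csf1r (ENSMUSG00000024621, chr18:61100598-61132149, plus strand) shares 873 exonic bases, 15.1% of its exonic length, with Hmgxb3 on the opposite strand, which had an adjusted p of 0.991 in the same comparison. Cx3cr1, the receptor for the neuronal chemokine fractalkine, had 75.9, 84.5 and 76.3 CPM in 5xFAD, against 36.3, 32.1 and 48.3 CPM in WT. Again the groups did not overlap, with a log2 fold change of 1.02 ± 0.21 (adjusted p = 0.0313). Selplg encodes PSGL-1, a ligand of the selectins, and had 67.7, 101 and 77.3 CPM in 5xFAD, against 30.8, 40.2 and 49.0 CPM in WT. Its log2 fold change was 1.03 ± 0.18 (adjusted p = 0.0224), with no overlap. Fcrls, an Fc-receptor-like scavenger receptor of mouse microglia, had 75.9, 102 and 75.3 CPM in 5xFAD, against 29.4, 26.9 and 46.2 CPM in WT. At 1.30 ± 0.24 on the log2 scale (adjusted p = 0.0269) it had the largest fold of the 9. Tmem119, a transmembrane protein used as a microglial marker, had 56.8, 71.3 and 51.4 CPM in 5xFAD, against 37.1, 35.4 and 41.5 CPM in WT. Its groups were also separate, but its log2 fold change of 0.65 ± 0.13 (adjusted p = 0.0282) was the smallest of the 6 called.

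Olfml3, a secreted olfactomedin-domain protein, had 63.4, 79.6 and 67.9 CPM in 5xFAD, against 27.4, 27.4 and 33.8 CPM in WT, with a log2 fold change of 1.25 ± 0.21 (adjusted p = 0.0216). The 5xFAD libraries lay far above the WT ones, at 2.37-fold in the fit.

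The purinergic receptors P2ry12 and P2ry13 were not called. P2ry12, the ADP receptor that steers microglial processes toward injury, had 20.6, 19.1 and 19.0 CPM in 5xFAD, against 13.6, 17.0 and 20.8 CPM in WT. The groups overlapped at WT replicate 3, and the log2 fold change was 0.19 ± 0.22 (adjusted p = 0.604, 95% interval -0.27 to 0.66). P2ry13, its neighbour and a second ADP receptor, had 15.9, 19.9 and 15.9 CPM in 5xFAD, against 9.15, 12.2 and 10.03 CPM in WT. The P2ry13 groups did not overlap, but its log2 fold change of 0.71 ± 0.19 had an adjusted p of 0.0501 and was not called. Sall1, the zinc-finger transcription factor of microglial identity, had 21.8, 13.2 and 18.2 CPM in 5xFAD, against 21.6, 13.5 and 14.1 CPM in WT. The Sall1 groups overlapped throughout (log2 fold change 0.12 ± 0.38, adjusted p = 0.874, 95% interval -0.72 to 0.96).

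**Figure D1:**
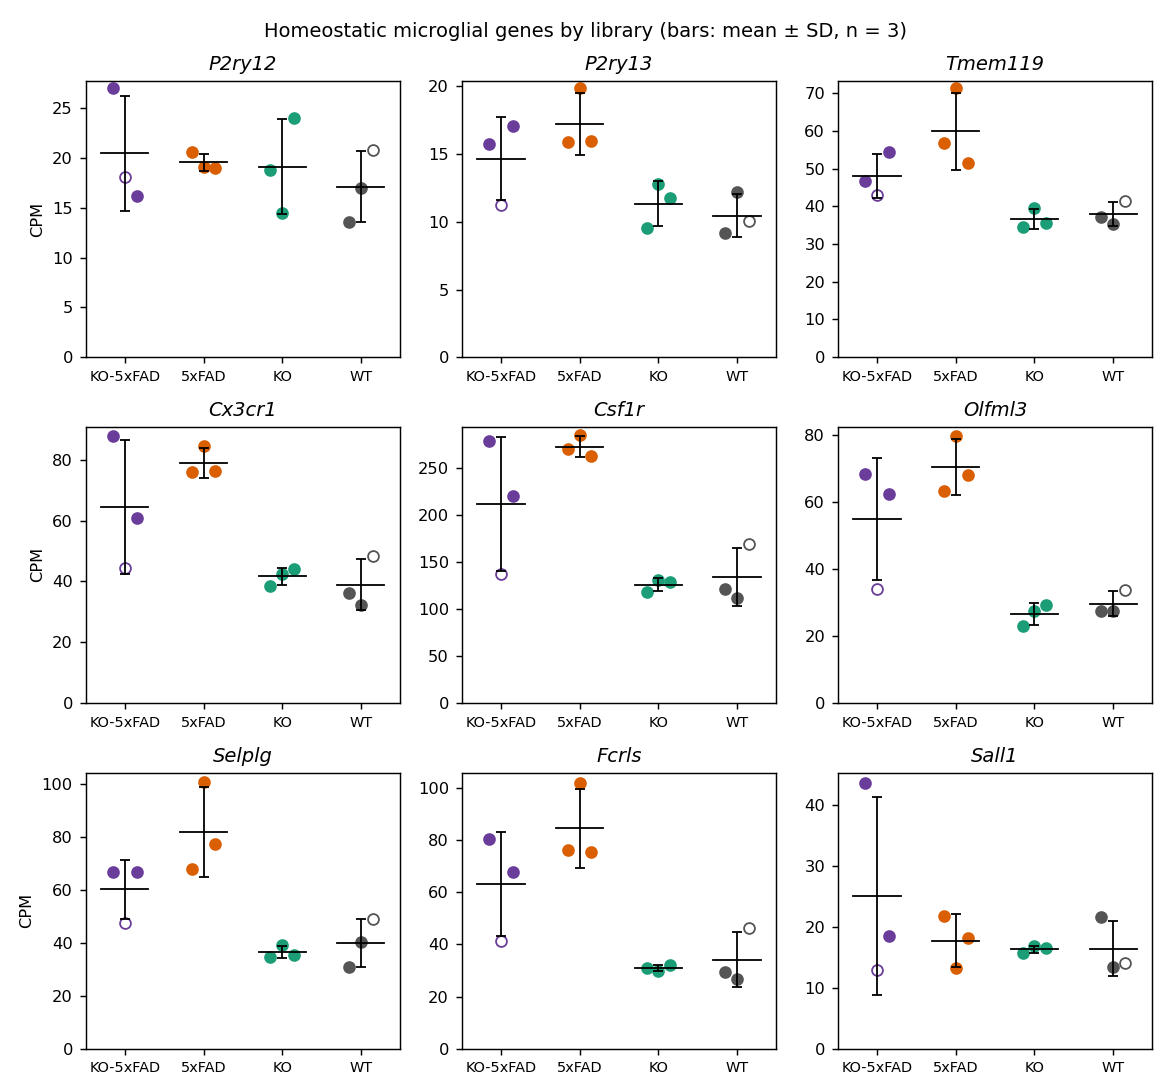
Level of each of the 9 genes in every library, in CPM on a linear axis from 0; points are libraries, bars the mean ± SD of 3, and open points the libraries labelled Kcnip3 KO-5xFAD replicate 2 and WT replicate 3. For Csf1r the 5xFAD libraries sit at 263 to 285 CPM and the WT libraries at 111 to 169 CPM, whereas the groups overlap for P2ry12 and Sall1.

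Of the 9 genes 7 had every 5xFAD library above every WT library, a separation that 13.7% of all tested genes showed upward and 13.9% downward. The calls depended on which library was left out, with 16166 to 16218 genes tested. Without any 1 Kcnip3 KO or Kcnip3 KO-5xFAD library 6 or 7 members were called, against 143 to 397 genes higher and 89 to 330 lower. Without 5xFAD replicate 1, 7 were called, against 939 higher and 1178 lower. Without WT replicate 1, 5xFAD replicate 2 or 5xFAD replicate 3, 0 of the 9 genes were called (edgeR), with 1 gene called in the whole table. Without WT replicate 2 only 2 were called, against 147 genes higher and 230 lower. Without WT replicate 3 also 2 were called, against 12 higher and 1 lower. In the 5 fits that called 0 or 2, 7 of the 9 genes still had an unadjusted p under 0.05. The adjusted p-values of the lost calls ran from 0.0517 to 0.152. The fold changes held: the median over the 9 genes stayed at 0.85 to 1.20 in the same fits.

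With the 2 libraries that went against their labels by Thy1 left out, the same 6 genes were called, against 1.22% of all genes higher and 0.0809% lower. Their log2 fold changes were 1.58 for Fcrls, 1.36 for Olfml3, 1.23 for Csf1r, 1.21 for Cx3cr1, 1.20 for Selplg and 0.72 for Tmem119, each above the value with all 12 libraries. P2ry13 stood at 0.68 (adjusted p = 0.133), P2ry12 at 0.35 (adjusted p = 0.504) and Sall1 at 0.02 (adjusted p = 0.982). With 9 libraries the same 6 genes were called, against 1.26% of all genes higher and 0.0808% lower. WT replicate 3, with the high Thy1, was the highest WT library for 7 of the 9 genes.

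The second comparison asks the same of amyloid on the Kcnip3-deficient background, Kcnip3 KO-5xFAD against Kcnip3 KO. With all 12 libraries 0 of the 9 genes were called (edgeR), as were 0% of all genes higher and 0% lower, while 6 of the 9 had an unadjusted p under 0.05. DESeq2 called 4 of the 9, against 111 genes higher and 24 lower of 15905 tested. All 9 estimates were positive, with a median log2 fold change of 0.63. Without the 2 libraries that went against their labels by Thy1, 5 genes rose, Olfml3, Fcrls, Csf1r, Selplg and Cx3cr1, against 1.29% of all genes higher and 0.00622% lower. Leaving out Kcnip3 KO-5xFAD replicate 2 alone gave the same count of 5, against 190 genes higher and 3 lower of 16182 tested. With 9 libraries 4 rose, Olfml3, Fcrls, Csf1r and Cx3cr1, against 0.976% of all genes higher and 0.0187% lower, and Selplg stood at 0.85 (adjusted p = 0.0579).

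Olfml3 had 68.3, 34.0 and 62.4 CPM in Kcnip3 KO-5xFAD replicates 1 to 3, against 22.9, 27.5 and 29.2 CPM in Kcnip3 KO. Its log2 fold change was 1.05 ± 0.21 with all libraries (adjusted p = 0.225) and 1.30 with 10 (adjusted p = 0.000171). Fcrls had 80.2, 41.2 and 67.8 CPM in Kcnip3 KO-5xFAD, against 30.9, 29.7 and 32.1 CPM in Kcnip3 KO. The second library stood closest to Kcnip3 KO, and the log2 fold change was 1.03 ± 0.25 (adjusted p = 0.251), or 1.26 with 10 libraries (adjusted p = 0.000308). Csf1r had 278, 137 and 221 CPM in Kcnip3 KO-5xFAD, against 118, 130 and 129 CPM in Kcnip3 KO. For Csf1r the second library was only just above the Kcnip3 KO range, with a log2 fold change of 0.75 ± 0.21 (adjusted p = 0.282), or 0.99 with 10 libraries (adjusted p = 0.000417). Selplg had 66.5, 47.3 and 66.8 CPM in Kcnip3 KO-5xFAD, against 34.8, 39.0 and 35.3 CPM in Kcnip3 KO. Its groups were separate, at 0.73 ± 0.19 (adjusted p = 0.251), or 0.87 with 10 libraries (adjusted p = 0.0146). Cx3cr1 had 87.9, 44.3 and 60.9 CPM in Kcnip3 KO-5xFAD, against 38.6, 42.3 and 44.0 CPM in Kcnip3 KO. The second Kcnip3 KO-5xFAD library was only just above the highest Kcnip3 KO one, and the log2 fold change was 0.63 ± 0.21 (adjusted p = 0.318), or 0.84 with 10 libraries (adjusted p = 0.00912).

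The other 4 genes were not called with 12 or with 10 libraries. Tmem119 had 46.7, 43.0 and 54.3 CPM in Kcnip3 KO-5xFAD, against 34.6, 39.5 and 35.6 CPM in Kcnip3 KO, with a log2 fold change of 0.39 ± 0.13 (adjusted p = 0.327). Its groups did not overlap. P2ry13 had 15.7, 11.2 and 17.1 CPM in Kcnip3 KO-5xFAD, against 9.51, 12.8 and 11.7 CPM in Kcnip3 KO (0.37 ± 0.19, adjusted p = 0.517). P2ry12 had 27.1, 18.1 and 16.2 CPM in Kcnip3 KO-5xFAD, against 18.8, 14.5 and 24.1 CPM in Kcnip3 KO (0.10 ± 0.22, adjusted p = 0.9). Both purinergic receptors overlapped between the groups. Sall1 had 43.6, 13.002 and 18.5 CPM in Kcnip3 KO-5xFAD, against 15.7, 16.8 and 16.6 CPM in Kcnip3 KO (0.62 ± 0.38, adjusted p = 0.612). The 43.6 CPM of Kcnip3 KO-5xFAD replicate 1 was the highest Sall1 level of the 12 libraries and the 13.002 CPM of replicate 2 the lowest, and without replicate 1 the estimate was -0.05.

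In all, 6 of the 9 genes had every Kcnip3 KO-5xFAD library above every Kcnip3 KO library, against 8.37% of all tested genes upward and 7.25% downward. The library labelled Kcnip3 KO-5xFAD replicate 2, with low Thy1, was the lowest of its group for 8 of the 9 genes. The summed level of the 9 genes was 714, 389 and 585 CPM in Kcnip3 KO-5xFAD replicates 1 to 3, 668, 775 and 664 CPM in 5xFAD, 324, 353 and 358 CPM in Kcnip3 KO, and 327, 316 and 433 CPM in WT. That replicate 2 thus lay closer to the libraries without transgenes than to the other Kcnip3 KO-5xFAD libraries.

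**Figure D2:**
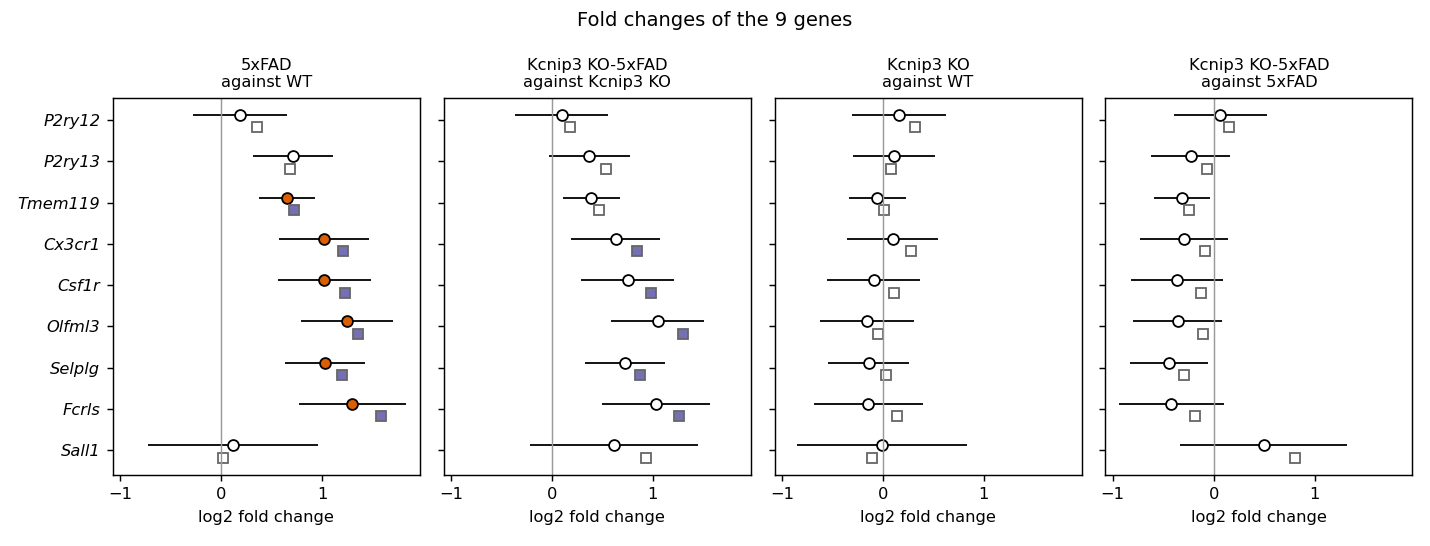
Log2 fold changes of the 9 genes in 4 comparisons; circles are fits of all 12 libraries with 95% intervals and squares fits of 10 libraries, filled where the gene was called. With 12 libraries the 6 filled circles are all in 5xFAD against WT, and with 10 libraries filled squares appear in both comparisons with amyloid and in no other.

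Loss of Kcnip3 without amyloid gave no call among the 9 genes. In Kcnip3 KO against WT DESeq2 called 0 of the 9, against 9 genes higher and 20 lower of 15905 tested. By edgeR 0 of the 9 were called, against 0.0251% of all genes called higher and 0.0251% lower. In the edgeR fit 0 of the 9 had an unadjusted p under 0.05. Log2 fold changes ran from -0.16 (Olfml3) to 0.16 (P2ry12), and libraries overlapped for all 9 genes, where 4.58% of all genes were separate upward and 4.89% downward. The narrowest 95% interval, that of Tmem119, ran from -0.34 to 0.23, and the widest, that of Sall1, from -0.85 to 0.84. With 10 libraries 0 were again called, against 0.0249% higher and 0.0187% lower over all genes, and estimates ran from -0.10 (Sall1) to 0.32 (P2ry12). With 9 libraries 0 were called, against 0.0249% higher and 0.0187% lower over all genes, and estimates ran from -0.12 (Olfml3) to 0.24 (Cx3cr1).

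Loss of Kcnip3 on the amyloid background gave mostly lower estimates, none of them called. In Kcnip3 KO-5xFAD against 5xFAD 7 of the 9 were negative, with a median log2 fold change of -0.32. By edgeR 0 were called, against 0.0314% of all genes higher and 0.0377% lower. DESeq2 called 0 of the 9, against 16 genes higher and 13 lower of 15905 tested. Selplg, at -0.44 ± 0.18, and Tmem119, at -0.32 ± 0.13, were the 2 genes with an unadjusted p under 0.05, and each had an adjusted p of 0.452 (edgeR). Selplg was the single gene whose libraries were separate between the groups, where 9.05% of all genes were separate upward and 7.29% downward. P2ry12 (0.07 ± 0.22) and Sall1 (0.49 ± 0.38) were positive, and without Kcnip3 KO-5xFAD replicate 1 both were negative, at -0.19 and -0.18. With 10 libraries the median was -0.10 and 0 of the 9 were called, against 0.0311% higher and 0.00622% lower over all genes. With 9 libraries 0 were called, against 0.0373% higher and 0.0311% lower.

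The interaction tests whether the change with amyloid differed between mice without and with Kcnip3. DESeq2 called 0 of the 9 genes, against 5 genes higher and 1 lower of 15905 tested. By edgeR 0 of the 9 were called and 0 had an unadjusted p under 0.05, against 0% of all genes called in either direction. Of the 9 estimates 8 were negative, with a median of -0.27 on the log2 scale. For Cx3cr1, the most negative, the 95% interval was -1.01 to 0.24. With 10 libraries the median was -0.24 and 0 of the 9 were called, against 0.00622% higher and 0% lower over all genes. With 9 libraries 0 of the 9 were called, as were 0% of all genes in either direction. Neither a dependence on Kcnip3 nor an equal response without it was shown.

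Other microglial genes give the scale for these changes. Their lists were compiled from general knowledge of microglia, with earlier results of these data known. Among 12 other homeostatic genes, 4 rose in 5xFAD against WT and 0 fell, with a median log2 fold change of 0.69. Among them were Ltc4s, which makes leukotriene C4 (1.21 ± 0.27, adjusted p = 0.0345), Bin2 (1.07 ± 0.21, adjusted p = 0.0247) and the fructose transporter gene Slc2a5 (0.79 ± 0.19, adjusted p = 0.0448). With 10 libraries 4 rose, with a median of 0.83, but Ltc4s (1.02, adjusted p = 0.108) and Slc2a5 (0.84, adjusted p = 0.103) were no longer called, Bin2 was (1.15, adjusted p = 0.0319), and Siglech (1.14, adjusted p = 0.00251) and Slco2b1 (0.82, adjusted p = 0.0166) were added. Of 18 plaque-associated genes 9 rose with 12 libraries, with a median of 1.72, and 13 rose with 10 libraries, with a median of 1.79. Examples were the tetraspanin Cd9 (1.38 ± 0.17, adjusted p = 0.0104) and the galectin Lgals3 (1.81 ± 0.30, adjusted p = 0.0177). Cst7, the cystatin F gene, was chosen after its values were seen: it averaged 41.2 ± 35.2 CPM in Kcnip3 KO-5xFAD, 93.0 ± 26.3 CPM in 5xFAD, 0.112 ± 0.115 CPM in Kcnip3 KO and 8.95 ± 15.2 CPM in WT (SD, n = 3 each). By library Cst7 read 66.6, 1.00 and 55.9 CPM in Kcnip3 KO-5xFAD replicates 1 to 3 and 0, 0.319 and 26.5 CPM in WT. The WT mean thus came from replicate 3, and replicate 2 lowered the Kcnip3 KO-5xFAD mean. These are the 2 libraries that went against their labels by Thy1.

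Genes that mark microglia and macrophages in general also rose. Of 13 such identity genes 9 were called higher in 5xFAD against WT with 12 libraries, with a median of 1.68 and a range from 0.99 (Itgam) to 2.29 (Tyrobp, adjusted p = 0.0584). With 10 libraries 12 of the 13 were called, with a median of 1.98; Tyrobp was then called (2.90, adjusted p = 2.8e-05) and Itgam was not (1.11, adjusted p = 0.0783). Among them were the complement genes C1qb (1.76 ± 0.35, adjusted p = 0.0345) and C1qc (1.76 ± 0.33, adjusted p = 0.0319), and Fcer1g, an immune receptor adaptor (1.68 ± 0.34, adjusted p = 0.0339). Summed, the identity genes gave 547 to 1690 CPM in Kcnip3 KO-5xFAD, 1679 to 2330 CPM in 5xFAD, 381 to 441 CPM in Kcnip3 KO and 456 to 793 CPM in WT.

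Each homeostatic gene was then set against the mean log2 level of the 13 identity genes in the same library. By this ratio all 9 genes were lower in 5xFAD than in WT, with every 5xFAD library below every WT library, also with 10 libraries. The identity mean was itself separate, at 6.04 to 6.46 log2 CPM in 5xFAD against 4.26 to 5.05 in WT. It was also separate between Kcnip3 KO-5xFAD (4.53 to 6.14) and Kcnip3 KO (4.07 to 4.30). A gene at a constant level would thus also be lower without overlap, so the choice of divisor favours such counts. The share of all tested genes with a separate ratio was not computed, here or in Kcnip3 KO against WT. Sall1 differed most, at a mean log2 ratio of -2.06 ± 0.59 in 5xFAD against -0.51 ± 0.70 in WT (SD, n = 3 each). P2ry12 came next, at -1.89 ± 0.27 in 5xFAD against -0.44 ± 0.24 in WT, then Tmem119 at -0.31 ± 0.10 in 5xFAD against 0.72 ± 0.34 in WT. Fcrls differed least, at 0.19 ± 0.04 in 5xFAD against 0.53 ± 0.08 in WT. In Kcnip3 KO-5xFAD against Kcnip3 KO the 9 differences ran from -1.17 (P2ry12) to -0.28 (Olfml3), with no overlap for 4 of the 9 genes, P2ry13, Cx3cr1, Csf1r and Sall1, and for all 9 with 10 libraries. In Kcnip3 KO against WT the ratio was higher without overlap for 3 of the 9 genes, Cx3cr1, Csf1r and Fcrls. The ratios are a description and were not tested; an exact permutation test of 3 against 3 libraries could not give a two-sided p below 0.1.

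The ratio depends on which identity genes stand below it. Aif1, Itgam and Ptprc, chosen after their values were seen, had log2 fold changes of 1.07, 0.99 and 1.15 in 5xFAD against WT, the smallest of the 13, so that a smaller drop of the ratio is fixed by their choice. Against the mean of these 3 genes, the libraries of 5xFAD were below those of WT for 3 of the 9 genes, Sall1 (difference -0.98), P2ry12 (-0.89) and Tmem119 (-0.46), and overlapped for the other 6. Fcrls (0.23) and Olfml3 (0.15) were then higher in 5xFAD on average, and Csf1r (-0.05), Cx3cr1 (-0.06) and Selplg (-0.06) differed by less than 0.1. In Kcnip3 KO-5xFAD against Kcnip3 KO 1 of the 9 genes, Sall1 (-0.46), was below without overlap by this ratio. Of these 3 genes Aif1 and Itgam were called higher in 5xFAD against WT (edgeR, adjusted p = 0.0377 and 0.0451). Ptprc, at only 0.957 to 7.24 CPM over the libraries, was not called (adjusted p = 0.197). In the same comparison Sall1 (0.12) and P2ry12 (0.19) had log2 fold changes near 0. Any gene near 0 would tend to be lower by this ratio, and the share of all tested genes below without overlap was not computed.

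**Figure D3:**
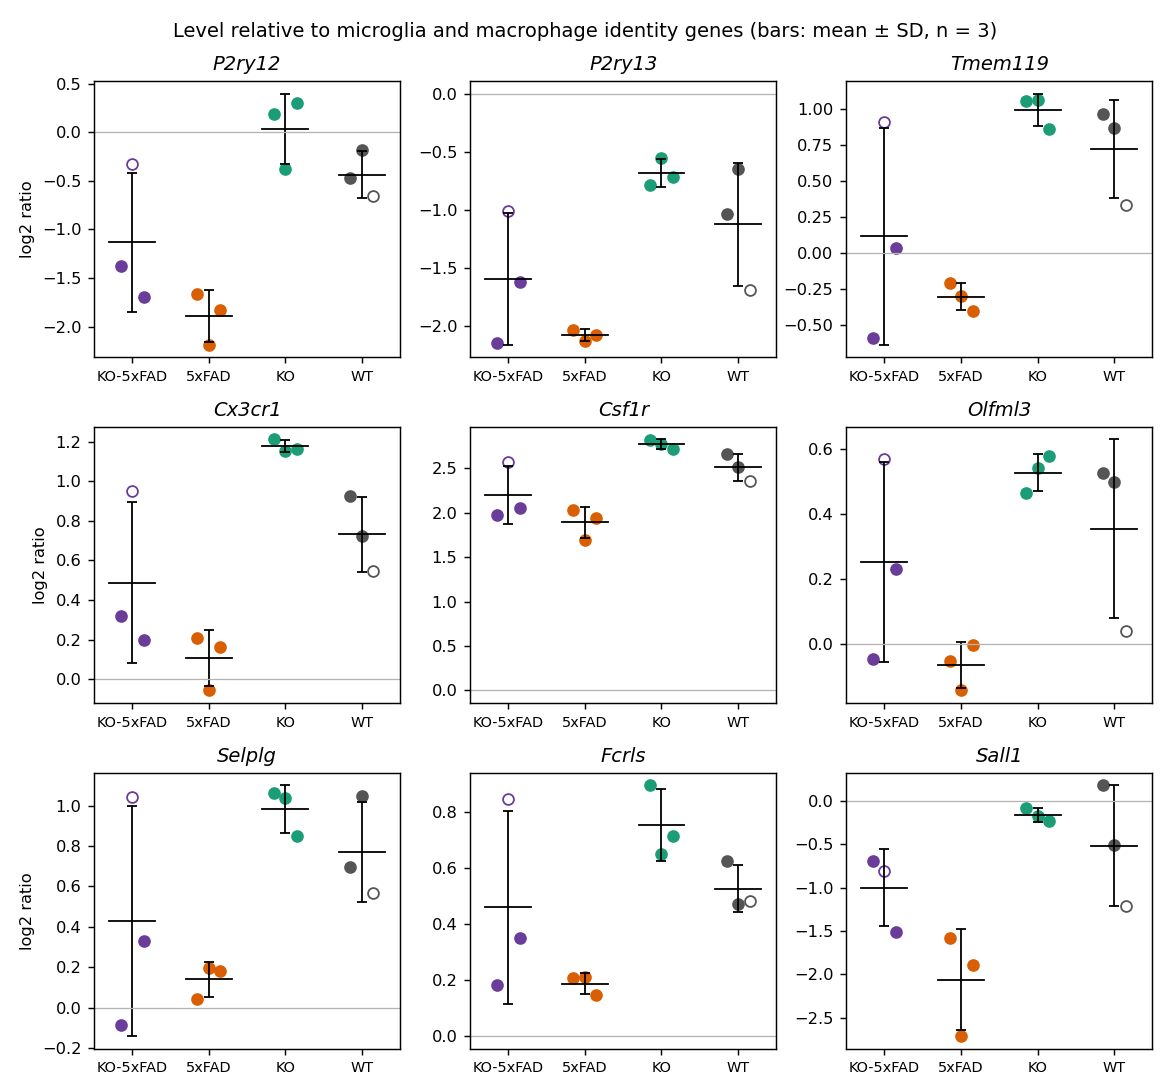
Log2 level of each gene minus the mean log2 level of 13 microglia and macrophage identity genes in the same library; points are libraries, bars the mean ± SD of 3, open points the libraries labelled Kcnip3 KO-5xFAD replicate 2 and WT replicate 3, and axes do not start at 0. The 5xFAD points lie below all WT points in each of the 9 panels, most for Sall1 and P2ry12. The subtracted mean was itself higher in every 5xFAD library than in every WT library.

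**Figure D4:**
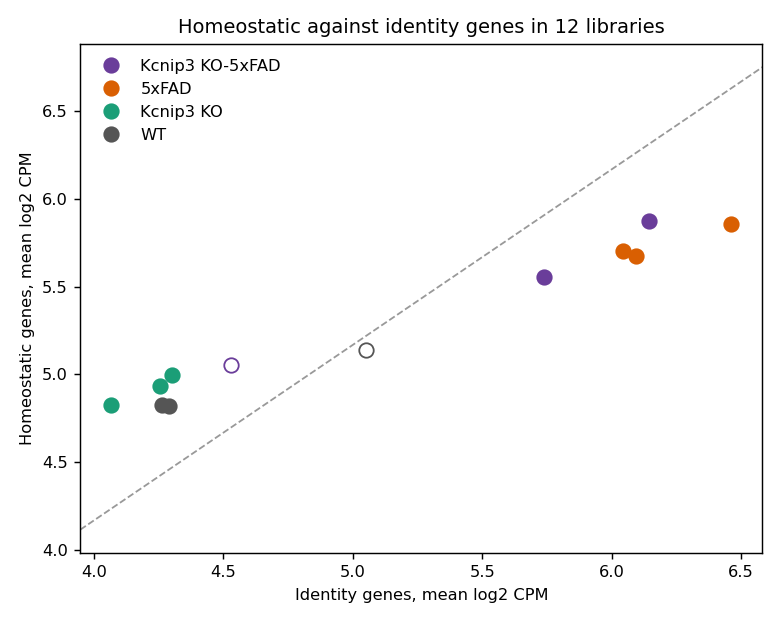
Mean log2 CPM of the 9 homeostatic genes against that of the 13 identity genes in each library, with open points for the libraries labelled Kcnip3 KO-5xFAD replicate 2 and WT replicate 3; the dashed line has slope 1 through the mean of the 12 libraries. The 3 5xFAD libraries and Kcnip3 KO-5xFAD replicates 1 and 3 fall below the line, and the 3 Kcnip3 KO libraries and WT replicates 1 and 2 lie above it. The open point of Kcnip3 KO-5xFAD replicate 2 lies above the line and that of WT replicate 3 just below it.

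Ligands and signalling partners of the 9 genes were mostly not called in 5xFAD against WT. Of 15 listed, 14 were tested and 2 rose: Csf1, a ligand of Csf1r, at 52.6 ± 9.30 CPM in 5xFAD against 30.4 ± 4.38 CPM in WT (log2 fold change 0.79 ± 0.18, adjusted p = 0.0369), and Tgfb1, at 17.9 ± 5.07 CPM in 5xFAD against 6.47 ± 1.79 CPM in WT (1.46 ± 0.34, adjusted p = 0.0401). Il34, the neuronal ligand of Csf1r, averaged 77.8 ± 9.78 CPM in 5xFAD against 81.8 ± 2.83 CPM in WT. Cx3cl1, the ligand of Cx3cr1, averaged 727 ± 45.0 CPM in 5xFAD against 783 ± 49.96 CPM in WT. Neither was called (adjusted p = 0.729 and 0.61). With 10 libraries Csf1 also rose in Kcnip3 KO-5xFAD against Kcnip3 KO (0.91, adjusted p = 0.00744), as did Tgfbr2 (0.88, adjusted p = 0.0233). Tgfb1 was not called there (1.12, adjusted p = 0.226).

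Of 9 microglial transcription factors 3 rose in 5xFAD against WT and 0 fell. They were Spi1, which encodes PU.1 (1.55 ± 0.27, adjusted p = 0.0216), Irf8 (1.74 ± 0.40, adjusted p = 0.0433) and Cebpa (1.14 ± 0.21, adjusted p = 0.0225), beside the 0.12 ± 0.38 of Sall1. With 10 libraries 4 rose, with Irf5 added (1.52, adjusted p = 0.00471). Spi1 averaged 17.0 ± 4.60 CPM in 5xFAD and 5.77 ± 1.30 CPM in WT. Among 13 genes related to the 9 by family or only by name, 11 were tested and 1 rose, P2ry6, a receptor for UDP (1.09 ± 0.24, adjusted p = 0.0351). Csf3r, a cytokine receptor gene, was at 1.46 ± 0.37 (adjusted p = 0.0545) and rose with 10 libraries (1.81, adjusted p = 9.23e-05).

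Markers of other cells were examined beside these results. Of 7 border macrophage markers 6 were tested and 0 were called in 5xFAD against WT, all 6 negative, with F13a1 at -1.37 ± 0.50 (adjusted p = 0.116). Their sum was 8.32 to 16.2 CPM in Kcnip3 KO-5xFAD, 3.97 to 17.8 CPM in 5xFAD, 10.8 to 12.7 CPM in Kcnip3 KO and 10.95 to 22.9 CPM in WT, and none was at 0 in any library. Of 6 monocyte and neutrophil markers 2 were tested and 0 called. The sum of these 6 was 1.72 to 5.54 CPM in Kcnip3 KO-5xFAD, 1.99 to 2.41 CPM in 5xFAD, 1.46 to 3.26 CPM in Kcnip3 KO and 2.02 to 6.06 CPM in WT, and Ccr2 was at 0 in 3 libraries, Plac8 in 4 and Chil3 in 4. Of 5 astrocyte markers 0 were called in 5xFAD against WT, with 3 estimates positive and 2 negative. Gfap stood at 2.098 ± 0.59 (adjusted p = 0.0745) and Gja1 at -0.43 ± 0.12 (adjusted p = 0.063). With 10 libraries Gfap rose in 5xFAD against WT (2.59, adjusted p = 0.0102) and in Kcnip3 KO-5xFAD against Kcnip3 KO (1.91, adjusted p = 0.0304). The astrocyte sum was 1258 to 3687 CPM in Kcnip3 KO-5xFAD, 2946 to 3362 CPM in 5xFAD, 1049 to 1495 CPM in Kcnip3 KO and 1001 to 1625 CPM in WT. Gfap alone read 2189 to 2719 CPM in 5xFAD and 375 to 896 CPM in WT. Of 5 neuron markers 1 fell, Snap25 (-0.70 ± 0.11, adjusted p = 0.0173), and none of the 5 oligodendrocyte, 5 endothelial, 5 choroid plexus or 5 meningeal fibroblast markers was called (edgeR, with 12 or with 10 libraries). With 10 libraries the border macrophage, monocyte and neutrophil markers again had 0 calls and Snap25 was again lower (-0.67, adjusted p = 0.0249). The part of the astrocyte and neuron markers in the changes above was not tested.

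Within the set, Cx3cr1, Csf1r, Olfml3 and Fcrls followed each other most closely. Over the 12 libraries the correlation (Pearson r of log2 CPM) of each gene with the mean of the other 8 was 0.98 for Cx3cr1 and Csf1r, 0.97 for Olfml3 and Fcrls, 0.91 for Selplg and 0.84 for P2ry13 and Tmem119. P2ry12 at 0.40 and Sall1 at 0.34 followed the others least. After the genotype means were removed, r was 0.97 for Csf1r, 0.96 for Cx3cr1, 0.93 for Olfml3, 0.90 for Fcrls, 0.67 for Selplg, 0.52 for P2ry13, 0.45 for Tmem119, 0.44 for P2ry12 and 0.40 for Sall1. These values describe 12 libraries that share 4 genotypes, and the within-genotype values include the 2 libraries that went against their labels by Thy1.

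Outside the set, the tested genes most like its mean pattern over the 12 libraries included Slamf9 (r = 0.986), the astrocyte gene Gfap (0.981), the complement gene C1qb (0.979), the heparanase gene Hpse (0.978) and the cathepsin gene Ctsb (0.977). With genotype means removed r was 0.959 for Slamf9, 0.954 for Gfap, 0.957 for C1qb, 0.918 for Hpse and 0.969 for Ctsb. The highest library was 5xFAD replicate 2 for 6 of the 9 genes and Kcnip3 KO-5xFAD replicate 1 for 3, P2ry12, Cx3cr1 and Sall1. From the lowest to the highest of the 12 libraries, levels spanned 3.78-fold for Fcrls, 3.47-fold for Olfml3, 3.35-fold for Sall1, 3.26-fold for Selplg, 2.74-fold for Cx3cr1, 2.56-fold for Csf1r, 2.17-fold for P2ry13, 2.06-fold for Tmem119 and 1.99-fold for P2ry12.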

How the data were processed

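The 12 hippocampus libraries were made with a TruSeq mRNA kit, according to the labels. The submitters' processing notes name edgeR 3.38.4, R 4.2.1, the counter featureCounts, the aligner HISAT2 2.1.0, FastQC 0.11.9 and the build mm10. The deposited main table holds raw read counts per Ensembl gene. A second table deposited by the authors holds log2 TPM, used for levels per length and as an alternative. No source used here gives the strand setting, the annotation release or the TPM lengths. Symbols and positions came from GENCODE M21 (GRCm38, the assembly of mm10).

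One model of the 12 libraries was fitted with edgeR 4.0.16 in R 4.3.3 (a coefficient per genotype, filterByExpr, TMM, robust quasi-likelihood test). Adjusted p-values are Benjamini-Hochberg values over the 15905 tested genes. A gene was called at an adjusted p under 0.05. SE is the absolute log2 fold change over the square root of F. CPM are TMM-scaled, and log2 CPM used a prior count of 2. Depth was 7664407 to 11310714 counts per library, and 3 counts came to 0.272 to 0.425 CPM; this covers counting error only. The fits were tested on simulated data. Replicates were not repeats of 1 library, since chi-square per gene was 7.47 to 18.0 between them.

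The members and gene lists were chosen with earlier results of these data known. Named genes are the 9, Kcnip3 and Thy1, up to 4 genes of each other list with the smallest p in 5xFAD against WT, and the 6 most alike by correlation. Some of these are not reported here, and Aif1, Itgam, Ptprc, Tyrobp, Siglech, Slco2b1, Cst7, Il34, Cx3cl1 and Hmgxb3 were added after values were seen. Alternatives were DESeq2 1.42.0 and its size factors, testing without a filter or with at least 50 counts in 3 libraries, limma 3.58.1 on log2 TPM, only the compared groups, a replicate block, a length and GC correction, and each library left out; the fits of 10 libraries and of 9 were added after seeing the data.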

Additional observations from a re-analysis of the deposited data

How the results depend on the processing

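The 6 genes called higher in 5xFAD against WT were 3 with limma on log2 TPM, where the median of all genes moved to -0.13, and 0 to 7 with 1 library left out. The count was 7 with no filter, the stricter filter and DESeq2, 6 with DESeq2 size factors and with only the compared groups, and 4 with the length and GC correction, under which Csf1r (0.97) and Tmem119 (0.40) lost their calls; the cause was not tested. Over all genes the 304 higher and 258 lower calls were 1136 and 995 with no filter, 667 and 764 with DESeq2, 80 and 158 with limma, 103 and 45 with the correction, and 1 and 0 to 939 and 1178 with 1 library left out. They were 368 and 349 with the stricter filter, 293 and 285 with DESeq2 size factors, and 264 and 119 with only the compared groups. In Kcnip3 KO-5xFAD against Kcnip3 KO the 0 members called were 6 with no filter, 4 with DESeq2, 5 without both libraries against their labels by Thy1, 4 without those and Kcnip3 KO replicate 3, and 0 to 5 with 1 library left out; calls over all genes were 419 and 302, 111 and 24, and 208 and 1 in the first 3 of these. In Kcnip3 KO-5xFAD against 5xFAD 1 member, Selplg, was called lower with no filter, against 200 genes higher and 151 lower of 31787 tested.

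Deviations of same-numbered libraries of different genotypes correlated at -0.43 to 0.49 over 18 pairs (median -0.016). Those of differently numbered libraries correlated at -0.58 to 0.46 over 36 pairs (median 0.00094). These ranges show no clear pairing by replicate number, but a pairing of some of the libraries was not tested. With the replicate block 7 members were called higher in 5xFAD against WT, and 632 genes higher and 602 lower in all.

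Signs changed for 15 of the 45 gene-level estimates, none of them called. With 1 library left out Sall1 ranged from -0.0498 to 0.37 in 5xFAD against WT, -0.0542 to 0.92 in Kcnip3 KO-5xFAD against Kcnip3 KO, -0.13 to 0.24 in Kcnip3 KO against WT, -0.18 to 0.80 in Kcnip3 KO-5xFAD against 5xFAD and -0.17 to 0.81 in the interaction. P2ry12 ranged from -0.16 to 0.29, -0.0379 to 0.32, -0.19 to 0.21 and -0.35 to 0.10 in the last 4 of these. In Kcnip3 KO against WT, Tmem119 ranged from -0.11 to 0.0111, Cx3cr1 from -0.0327 to 0.28, Csf1r from -0.22 to 0.11, Selplg from -0.29 to 0.0345 and Fcrls from -0.30 to 0.14, and Olfml3 in the interaction from -0.39 to 0.0504. Limma gave Sall1 -0.0264 in 5xFAD against WT and 0.0272 in Kcnip3 KO against WT, where the block gave 0.0518. The correction gave P2ry12 -0.15 in Kcnip3 KO-5xFAD against 5xFAD. In Kcnip3 KO against WT, leaving out both libraries against their labels gave Tmem119 0.011, Csf1r 0.11, Selplg 0.0343 and Fcrls 0.14, and leaving out Kcnip3 KO replicate 3 as well gave 0.0303, 0.10, 0.0549 and 0.11; that last setting gave P2ry12 0.0229 and Olfml3 0.0196 in the interaction.

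With 3 libraries a genotype and a common biological coefficient of variation of 0.144, the standard error of a log2 fold change in 5xFAD against WT was 0.13 to 0.24 for 8 of the members and 0.38 for Sall1.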
